A study of Homo sapiens with 24 samples.

Results

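The 38 genes described here encode proteins of homologous recombination and of the Fanconi anemia pathway, with checkpoint kinases and a pair of mismatch repair proteins that work beside them. They were chosen by symbol, and each of the 38 matched 1 of the 61860 Ensembl rows in the count tables. RNA was sequenced from OE33, an established line of esophageal adenocarcinoma (EAC), in 4 experiments with 3 treated and 3 control libraries each, 24 libraries in all. In the diet experiment, OE33 cells were grown under the skin of male BALB/c-nu nude mice fed either normal chow (ND) or chow high in fat (HFD). The mice were 4 weeks old at purchase, were fed for 8 weeks before the cells were injected, and stayed on the same diet for 21 days more before the xenografts were taken. In the TRIM15 experiment, cultured cells were transfected for 48 h with HA-tagged TRIM15, a ubiquitin ligase (TRIM15-OE), or with the empty vector (TRIM15-EV). In the YY2 experiment, cells were treated for 72 h with an shRNA against the zinc finger transcription factor YY2 (YY2-sh) or with a control shRNA (YY2-NC). In the FOXRED1 experiment, an shRNA against FOXRED1, an assembly factor of mitochondrial complex I (FOXRED1-sh), was compared with its own control shRNA (FOXRED1-NC) at 72 h. All cells in culture received a plasmid, controls included, nude mice lack T cells but keep other host cells, and which shRNA sequence was sequenced is not stated.

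Homologous recombination repairs a DNA double-strand break by copying the sister chromatid. The MRE11-RAD50-NBN complex finds the break, RBBP8 (CtIP) and EXO1 trim its ends to single strands, and BRCA1-BARD1, PALB2 and BRCA2, with paralog and accessory proteins such as XRCC2 and RAD54L, prepare the single strand to invade the sister duplex. When the strands of DNA are crosslinked, a core complex of Fanconi proteins attaches ubiquitin to FANCD2 and FANCI, which opens the way to recombination. ATM and ATR, with CHEK2 and CHEK1 downstream, halt the cell cycle meanwhile. A sister chromatid is present in S and G2 phase, so a list of 23 replication and mitosis genes is given beside these genes.

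The libraries held 14299807 to 45994561 counts, and all 38 members passed the filter on low counts in every experiment, the lowest count being 31 for FAAP24 in the FOXRED1 experiment. TRIM15 had 111, 130 and 181 counts in TRIM15-OE and 0 in each TRIM15-EV library. YY2 had 11, 12 and 11 counts in YY2-sh and 43, 40 and 46 in YY2-NC (log2 fold change -1.82 ± 0.22 (SE), adjusted p = 1.3e-06). FOXRED1 was 10.1, 11.2 and 8.83 CPM in FOXRED1-sh and 17.7, 17.2 and 17.3 CPM in FOXRED1-NC (log2 fold change -0.78 ± 0.11 (SE), adjusted p = 4.06e-05), and it was lower in YY2-sh too (log2 fold change -0.89, adjusted p = 3.31e-09). CPM are read counts scaled to library size with TMM factors, as the cpm function of edgeR gives them. The 8 columnar epithelial markers, led by KRT19, summed to 10178 to 15039 CPM in the 24 libraries (14498 to 14957 CPM in YY2-sh against 10852 to 11576 CPM in YY2-NC), though CDX1 was at 0 in all libraries of 3 experiments. The 6 fibroblast markers, COL1A1 highest, summed to 42.4 to 43.9 CPM in YY2-sh against 10.5 to 11.2 CPM in YY2-NC, to 38.4 to 41.8 CPM in FOXRED1-sh against 24.2 to 25.5 CPM in FOXRED1-NC, and to 23.7 to 27.0 CPM in HFD against 30.5 to 33.5 CPM in ND. The 6 leukocyte markers, led by ITGAM, summed to 5.95 to 7.08 CPM in YY2-sh against 10.6 to 12.0 CPM in YY2-NC, to 8.96 to 10.1 CPM in HFD against 11.4 to 12.2 CPM in ND, and to 6.48 to 7.54 CPM in TRIM15-OE against 5.36 to 5.45 CPM in TRIM15-EV. In the FOXRED1 experiment COL1A2 and DCN were at 0 in every library. In the diet experiment the 4 endothelial markers summed to at most 0.525 CPM and ADIPOQ, LEP and HBB were at 0. The part of these markers in the results below was not tested.

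The members moved most in the YY2 experiment. Of the 38 genes, 36 fell in YY2-sh, CHEK2 rose, and FANCE did not pass the threshold (adjusted p under 0.05, edgeR quasi-likelihood test). Over all 16006 genes tested, 38.1% fell and 36.8% rose, 75% in all, so a change as such was common in this experiment, and 94.7% of members against 38.1% of all genes fell. The members' median log2 fold change was -0.84 against -0.01 over all genes. A decrease of 2-fold or more was called in 13 members and in 14 of the 23 replication and mitosis genes. Its share over all genes was not counted. In the FOXRED1 experiment 27 members fell and 0 rose, where 19.7% of the 15730 genes tested fell, 16.8% rose and 36.6% changed, and the members' median was -0.43 against 0.01 over all genes. In the diet experiment 15 members rose and 4 fell, where 25.6% of 17012 genes rose, 23.9% fell and 49.5% changed, and the members' median was 0.05 against -0.01. In the TRIM15 experiment 2 members fell and 0 rose, where 9.53% of 15745 genes fell, 12.5% rose and 22.1% changed, with a median of -0.05 against -0.01. By edgeR, 1 member in the TRIM15 experiment and 0 in the FOXRED1 experiment were higher at an unadjusted p under 0.05, and DESeq2 called 0 members higher in either. The replicates are separate libraries, but the labels do not say whether they came from separate cultures or tumors, so the p-values may measure technical spread only. A single value from 3 against 3 libraries cannot reach an exact p below 0.1.

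**Figure D1:**
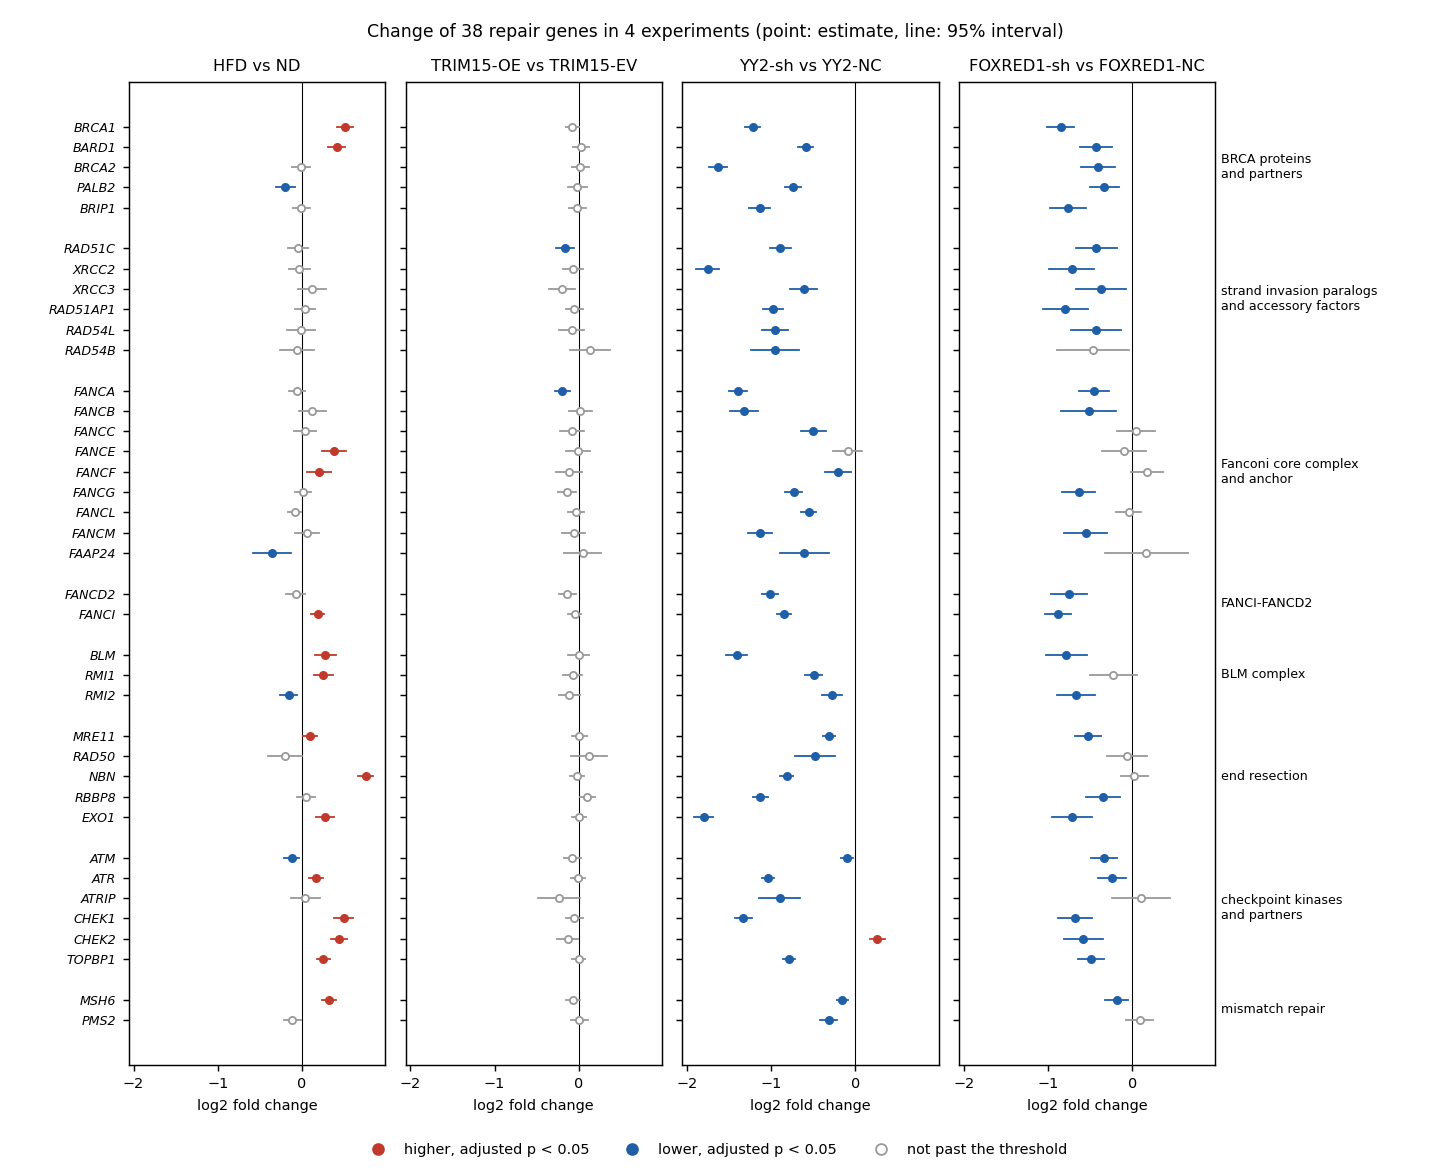
Log2 fold change (x axis) of each of the 38 repair genes (y axis, grouped by role) in the 4 experiments, with the 95% interval as a line. Red points rose, blue points fell and open grey points did not pass an adjusted p of 0.05, and blue points fill the YY2 panel, where 36 of 38 members fell, while the TRIM15 panel holds 2.

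The summed level of the members was 1321 to 1353 CPM in YY2-sh against 2256 to 2288 CPM in YY2-NC, 1065 to 1209 CPM in FOXRED1-sh against 1387 to 1519 CPM in FOXRED1-NC, and 1693 to 1708 CPM in HFD against 1485 to 1543 CPM in ND. In these 3 experiments the libraries of the groups did not overlap. In TRIM15-OE the sum was 2079 to 2194 CPM, just under the 2195 to 2212 CPM of TRIM15-EV. The controls of the 2 shRNA experiments differed as well, and the summed level in FOXRED1-NC lay below that in YY2-NC and overlapped that in ND. Libraries of different experiments were not compared by a test. In bulk RNA a smaller number of cells that transcribe these genes and less RNA of these genes per cell cannot be told apart.

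The 23 replication and mitosis genes also changed in each experiment. Of these, 20 fell in YY2-sh (median log2 fold change -1.60), 22 fell in FOXRED1-sh (median -0.74), 18 fell in TRIM15-OE (median -0.15), and in HFD 16 rose and 1, CCNB1, fell (median 0.18). In TRIM15-OE 78.3% of this list fell against 5.26% of the members, and in HFD 69.6% rose against 39.5% of the members. The ratio of the members' summed CPM to that of the replication and mitosis genes was 0.544 to 0.560 in YY2-sh against 0.484 to 0.493 in YY2-NC, and 0.878 to 0.988 in FOXRED1-sh against 0.700 to 0.749 in FOXRED1-NC. The ratio was therefore higher in both knockdowns, that is, the sum of the members dropped by a smaller factor than that of the replication and mitosis genes. It was 0.508 to 0.514 in HFD against 0.528 to 0.547 in ND and 0.459 to 0.483 in TRIM15-OE against 0.438 to 0.442 in TRIM15-EV. The part of the cell cycle in the members' change was not tested.

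**Figure D2:**
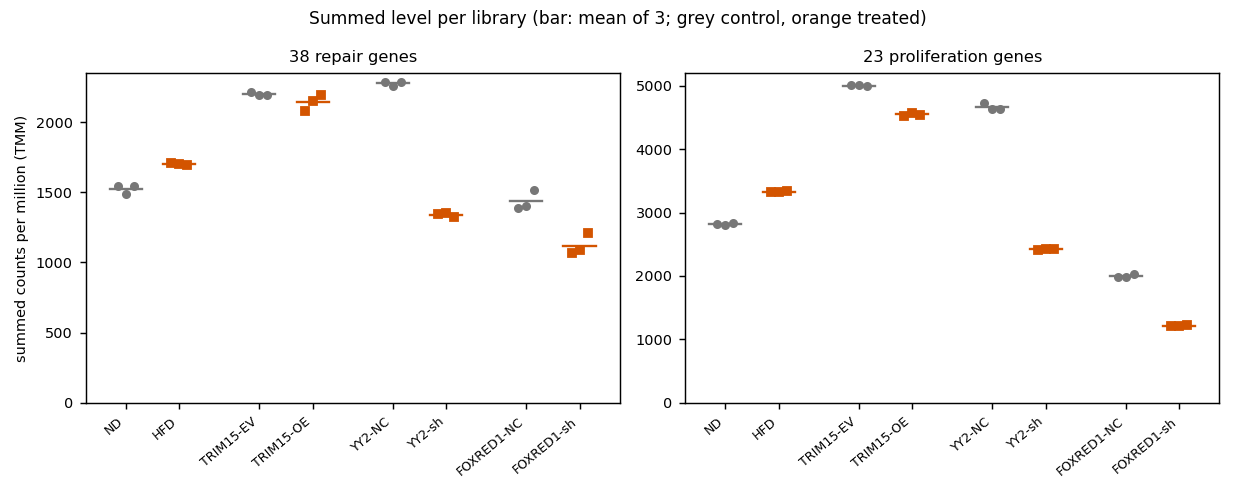
Summed CPM (y axis) of the 38 repair genes (left) and of 23 replication and mitosis genes (right) in each of the 24 libraries, by group, with the mean of 3 libraries as a bar. The 3 YY2-sh libraries sit at 1321 to 1353 on the left, below all YY2-NC libraries at 2256 to 2288, and on the right they sit at 2404 to 2428, below YY2-NC at 4635 to 4726.

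Among the BRCA proteins and their partners, all 5 members fell in YY2-sh. BRCA2, which acts on the resected single strand, was 25.3, 29.7 and 28.6 CPM in YY2-sh and 86.1, 88.3 and 86.0 CPM in YY2-NC, or 3.11-fold lower (log2 fold change -1.64 ± 0.05 (SE), adjusted p = 9.26e-14). BRCA1, the ubiquitin ligase that favors recombination over end joining, was 52.2, 52.3 and 56.2 CPM in YY2-sh and 123, 121 and 131 CPM in YY2-NC, 2.33-fold lower (log2 fold change -1.22 ± 0.04 (SE), adjusted p = 3.98e-13). All knockdown libraries lay far below all control libraries for both genes. For BRCA2, groups that did not overlap were a condition of its choice among the largest decreases. The helicase gene BRIP1 (log2 fold change -1.14), PALB2 (-0.75), which links BRCA1 to BRCA2, and BARD1 (-0.59), the partner of BRCA1, fell too, with adjusted p of at most 3.07e-09.

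All 6 members of the group of strand invasion paralogs and accessory factors (RAD51C, XRCC2, XRCC3, RAD51AP1, RAD54L and RAD54B) fell in YY2-sh, by log2 fold changes from -1.76 to -0.62. The lowest was XRCC2, which forms a complex with other paralogs, at 9.25, 9.84 and 9.95 CPM in YY2-sh and 33.3, 32.1 and 33.0 CPM in YY2-NC, 3.39-fold lower (log2 fold change -1.76 ± 0.06 (SE), adjusted p = 8.59e-13). RAD54L, a motor protein that acts in strand invasion, was 9.56, 9.48 and 9.47 CPM in YY2-sh and 18.1, 19.0 and 18.3 CPM in YY2-NC (log2 fold change -0.96 ± 0.07 (SE), adjusted p = 8.78e-09). Within each group the RAD54L libraries differed by less than 1 CPM. RAD51AP1 (-0.98), RAD54B (-0.95), RAD51C (-0.89) and XRCC3 (-0.62) completed the group. XRCC3 shares 76.7% of its exonic bases with KLC1 on the other strand and RAD54B shares 59.1% with FSBP on its own strand, in GENCODE 29, so reads of these pairs may have been split between genes. Smaller overlaps with genes on the other strand include those of RAD54L (25.1%), FANCA (23.6%), FANCL (19.7%), ATR (16.4%), MSH6 (16.2%) and FANCF (11.3%). The labels name a directional library kit, the study's methods name it without that word, and whether strand was used in counting is not given in the sources used here.

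Of the 5 end resection genes, all fell in YY2-sh, and EXO1, the exonuclease that makes long single-stranded tails, had the largest decrease of all 38 members in this experiment. EXO1 was 18.5, 17.4 and 16.0 CPM in YY2-sh and 60.8, 59.9 and 60.4 CPM in YY2-NC, 3.50-fold lower (log2 fold change -1.81 ± 0.05 (SE), adjusted p = 7.9e-14). RBBP8, which starts the trimming, fell by 1.13 on the log2 scale and NBN, the part of the break sensor that recruits ATM, fell by 0.82. The nuclease MRE11 (-0.32) and RAD50 (-0.48) fell less. RAD50 stood at only 5.52 to 8.80 CPM in the 6 libraries, and 79.7% of its exonic bases are shared on the same strand with the gene AC116366.3, so its counts are uncertain.

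The Fanconi core complex fell unevenly in YY2-sh. Of its 9 members, 8 fell, and FANCA (-1.40), FANCB (-1.33) and the anchor and motor protein FANCM (-1.13) were each more than 2-fold lower. FANCG (-0.73), FAAP24 (-0.61), the ubiquitin ligase subunit FANCL (-0.56) and FANCC (-0.50) fell less, and FANCF least (-0.21, adjusted p = 0.0166, lost with DESeq2 and without YY2-sh 1, YY2-sh 2 or YY2-NC 3). FANCE, which bridges the core to FANCD2, was 17.5, 15.8 and 18.7 CPM in YY2-sh and 18.0, 17.1 and 20.1 CPM in YY2-NC. Its groups overlapped, and the 95% interval of its log2 fold change ran from -0.26 to 0.08, so a decrease of the size seen in FANCC lay outside it.

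The targets of the core complex fell together. FANCD2 was 28.9, 30.8 and 28.6 CPM in YY2-sh and 59.7, 59.5 and 59.6 CPM in YY2-NC (log2 fold change -1.02 ± 0.04 (SE), adjusted p = 7.79e-12), and FANCI was 102, 101 and 92.99 CPM in YY2-sh and 185, 176 and 174 CPM in YY2-NC (log2 fold change -0.85 ± 0.04 (SE), adjusted p = 1.12e-11). In the BLM complex, which untangles recombined chromatids, the helicase gene BLM fell by 1.41 on the log2 scale, against -0.50 for RMI1 and -0.28 for RMI2, which stabilize it. The mismatch repair genes MSH6 (-0.15, adjusted p = 0.000486) and PMS2 (-0.32, adjusted p = 2.03e-05) both fell. PMS2 has near-identical copies that carried counts of their own, for example 494 to 955 for PMS2P1 in the TRIM15 experiment, where PMS2 had at least 656, so its value is uncertain in all experiments.

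The checkpoint genes split in YY2-sh. CHEK1, the kinase downstream of ATR, was 23.3, 22.8 and 24.0 CPM in YY2-sh and 58.1, 58.6 and 60.0 CPM in YY2-NC, 2.52-fold lower (log2 fold change -1.33 ± 0.05 (SE), adjusted p = 4.79e-13). CHEK2, the kinase downstream of ATM, was 48.9, 48.8 and 48.8 CPM in YY2-sh and 41.1, 39.5 and 41.6 CPM in YY2-NC, 1.198-fold higher (log2 fold change 0.26 ± 0.04 (SE), adjusted p = 4.17e-05), and it was the only member that rose in this experiment. ATR (-1.04), its partner ATRIP (-0.90) and its activator TOPBP1 (-0.79) fell. ATM was 94.4, 89.8 and 90.3 CPM in YY2-sh and 96.4, 97.1 and 100.2 CPM in YY2-NC, and its groups lay next to each other (log2 fold change -0.10 ± 0.03 (SE), adjusted p = 0.0162). Thus the ATR, ATRIP, TOPBP1 and CHEK1 branch fell in every library while ATM and CHEK2 changed by at most 1.198-fold. The ATM call did not hold with DESeq2 (adjusted p = 0.122), with at least 10 counts in every library (adjusted p = 0.0632) or without YY2-sh 2 or YY2-sh 3, and ATRIP shares 27.9% of its exonic bases with TREX1 on the same strand.

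**Figure D3:**
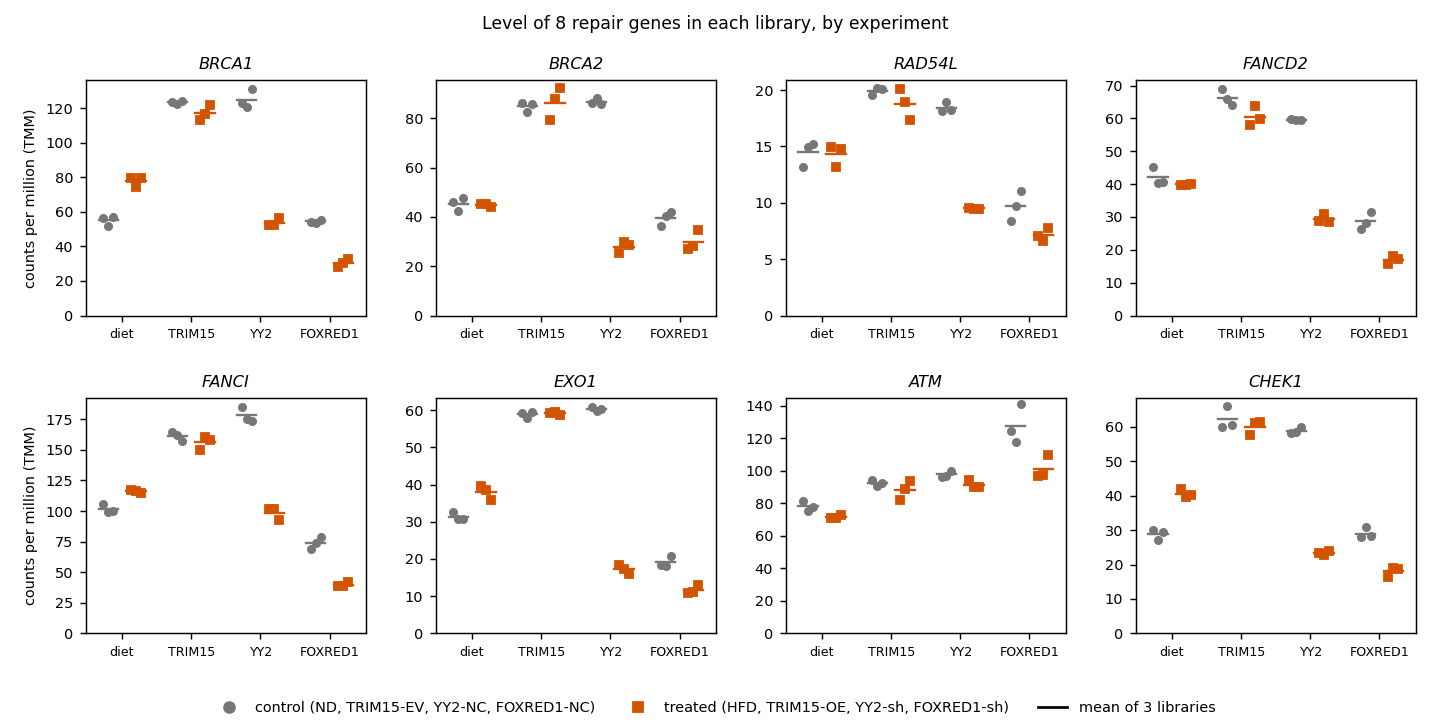
CPM (y axis, from 0) of 8 repair genes in each library of the 4 experiments (x axis), with controls as grey circles, treated libraries as orange squares and the mean of 3 libraries as a bar. EXO1 stood at 16.0 to 18.5 in YY2-sh against 59.9 to 60.8 in YY2-NC, while ATM stayed at 89.8 or more in both groups.

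Because the members fell together, the letters of their promoters were read from the RefSeq promoter table (build GRCh38.p14), which holds windows from 250 bases before to 50 after a start site. The table had 49 windows for 34 of the 38 members, 12 of them with more than 1 start, and the windows of some of these overlap. The windows of the 3 members that fell most in YY2-sh and of CHEK2, the member that rose, are shown 5′ to 3′ on the gene's strand, using the first listed start. They are chr1:241847954-241848253 (plus strand, EXO1), chr7:152676092-152676391 (minus strand, XRCC2), chr13:32315258-32315557 (plus strand, BRCA2) and chr22:28741771-28742070 (minus strand, CHEK2). Capitals mark matches to E2F-type letters (TTTCCCGC, TTTCGCGC, TTTGCCGC or TTTGGCGC) or to CCAAT, on either strand. E2F proteins drive S phase genes and CCAAT is bound by NF-Y.
EXO1: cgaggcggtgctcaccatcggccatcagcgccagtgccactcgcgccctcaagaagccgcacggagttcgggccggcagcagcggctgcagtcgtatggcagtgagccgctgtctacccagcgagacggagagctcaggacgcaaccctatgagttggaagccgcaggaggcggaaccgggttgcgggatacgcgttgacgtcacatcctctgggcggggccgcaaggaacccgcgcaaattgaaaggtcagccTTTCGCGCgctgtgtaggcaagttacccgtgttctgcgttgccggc
XRCC2: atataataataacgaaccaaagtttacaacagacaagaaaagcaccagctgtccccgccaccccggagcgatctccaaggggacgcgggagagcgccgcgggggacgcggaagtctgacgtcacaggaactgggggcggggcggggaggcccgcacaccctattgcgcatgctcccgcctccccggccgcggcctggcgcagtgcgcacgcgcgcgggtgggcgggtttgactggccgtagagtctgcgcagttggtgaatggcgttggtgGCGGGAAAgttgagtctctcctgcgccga
BRCA2: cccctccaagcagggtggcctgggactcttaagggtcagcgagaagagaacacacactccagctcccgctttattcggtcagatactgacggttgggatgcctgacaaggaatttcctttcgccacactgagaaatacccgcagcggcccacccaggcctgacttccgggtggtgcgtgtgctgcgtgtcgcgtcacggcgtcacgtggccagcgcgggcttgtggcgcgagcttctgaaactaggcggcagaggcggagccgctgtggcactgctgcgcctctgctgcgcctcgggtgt
CHEK2: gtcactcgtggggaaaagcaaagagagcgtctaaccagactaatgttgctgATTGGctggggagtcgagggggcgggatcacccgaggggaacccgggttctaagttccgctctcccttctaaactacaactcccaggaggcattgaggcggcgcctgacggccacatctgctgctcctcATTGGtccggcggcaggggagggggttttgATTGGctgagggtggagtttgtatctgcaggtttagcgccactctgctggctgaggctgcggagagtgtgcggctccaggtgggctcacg

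EXO1 held TTTCGCGC 5 bases into the transcript and XRCC2 held GCGGGAAA, the other strand of TTTCCCGC, at base 22. BRCA2 held neither kind of match, and CHEK2 held 3 matches to ATTGG, the other strand of CCAAT, at -199, -70 and -40. Over all member windows, 20.4% (10 of 49, from 9 genes) held the E2F-type letters, against 3.31% of the 35116 windows in the table. CCAAT was in 51% of member windows and 34.6% of all windows. The letters TTTGAA or TTCGAA, the core of the element of cell cycle genes called CHR, were in 8.16% and 16.4%, and AANATGGC, the core bound by YY family proteins, in 4.08% and 6.58%. All letters were searched on both strands, and a CCAAT match may share bases with a match to AANATGGC. The median change on the log2 scale in YY2-sh was -0.79 for members with E2F-type letters and -0.89 for members without, and -0.46 against -0.43 in FOXRED1-sh. For AANATGGC, held by 2 members only (FANCA and ATR), it was -1.22 with and -0.77 without in YY2-sh, and -0.35 against -0.43 in FOXRED1-sh. These are matches of letters in a fixed window, not sites of binding.

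In FOXRED1-sh the decrease was smaller and took other members furthest. FANCI, the partner of FANCD2, was lowest at 38.9, 38.8 and 42.0 CPM in FOXRED1-sh and 68.7, 73.7 and 79.0 CPM in FOXRED1-NC, 1.85-fold lower (log2 fold change -0.89 ± 0.07 (SE), adjusted p = 5.65e-08). BRCA1 was 28.0, 30.2 and 32.5 CPM in FOXRED1-sh and 54.4, 53.7 and 55.4 CPM in FOXRED1-NC, 1.80-fold lower (log2 fold change -0.85 ± 0.07 (SE), adjusted p = 1.28e-07). RAD51AP1, which stimulates strand invasion, was 7.93, 6.71 and 8.76 CPM in FOXRED1-sh and 13.7, 13.0 and 13.7 CPM in FOXRED1-NC, 1.74-fold lower (log2 fold change -0.80 ± 0.13 (SE), adjusted p = 0.000103). For all 3 genes every FOXRED1-sh library lay below every FOXRED1-NC library, which was a condition of their choice as the largest decreases. No member reached a 2-fold decrease.

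All 5 BRCA proteins and partners fell in FOXRED1-sh, by -0.85 to -0.33 on the log2 scale. BRCA2 was 27.0, 28.1 and 34.9 CPM in FOXRED1-sh and 36.4, 40.3 and 42.1 CPM in FOXRED1-NC (log2 fold change -0.41 ± 0.10 (SE), adjusted p = 0.0031). Of the strand invasion paralogs and accessory factors 5 fell, RAD54L among them at 7.10, 6.65 and 7.80 CPM in FOXRED1-sh and 8.36, 9.69 and 11.0 CPM in FOXRED1-NC (log2 fold change -0.43 ± 0.14 (SE), adjusted p = 0.0246). That call was lost without FOXRED1-sh 1 or 2 or FOXRED1-NC 2 or 3, when the adjusted p was 0.0619 to 0.124, with log2 fold changes of -0.43 to -0.33. RAD54B, at under 4 CPM in every library, did not pass (log2 fold change -0.47 ± 0.20 (SE), adjusted p = 0.0853).

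The Fanconi members divided in FOXRED1-sh. FANCD2 fell with FANCI and was 15.7, 18.2 and 17.2 CPM in FOXRED1-sh and 26.5, 28.3 and 31.5 CPM in FOXRED1-NC (log2 fold change -0.75 ± 0.10 (SE), adjusted p = 1.3e-05). In the core complex FANCG (-0.64), FANCM (-0.56), FANCB (-0.52) and FANCA (-0.46) fell, and the other 5 did not pass, with log2 fold changes from -0.10 for FANCE to 0.18 for FANCF. Thus FANCC, FANCL and FAAP24 fell in YY2-sh and had no call in FOXRED1-sh, and the test of the difference was passed by all 3. In the BLM complex, BLM (-0.79) and RMI2 (-0.67) fell, and RMI1 did not pass (log2 fold change -0.22 ± 0.13 (SE), adjusted p = 0.201). RMI1 fell without FOXRED1-sh 3 (adjusted p = 0.00911) and once replicate numbers were fitted as a block (adjusted p = 0.0399), which raised the count of members that fell from 27 to 28.

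End resection in FOXRED1-sh was uneven within the break sensor. MRE11 fell by 0.53 on the log2 scale (adjusted p = 2.5e-05), but NBN was 101, 103 and 118 CPM in FOXRED1-sh and 96.6, 103 and 118 CPM in FOXRED1-NC and RAD50 was 12.0, 12.5 and 13.1 CPM in FOXRED1-sh and 12.0, 13.4 and 13.9 CPM in FOXRED1-NC, with groups that overlapped for both. EXO1 was 10.9, 11.0 and 13.0 CPM in FOXRED1-sh and 18.3, 18.1 and 20.8 CPM in FOXRED1-NC (log2 fold change -0.71 ± 0.11 (SE), adjusted p = 9.06e-05). RBBP8 fell by 0.35.

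Of the checkpoint members 5 fell in FOXRED1-sh, CHEK2 included (11.8, 12.5 and 14.3 CPM in FOXRED1-sh and 19.5, 20.2 and 17.8 CPM in FOXRED1-NC, log2 fold change -0.58 ± 0.11 (SE), adjusted p = 0.000473). CHEK1 was 16.5, 19.0 and 18.8 CPM in FOXRED1-sh and 27.9, 30.9 and 28.2 CPM in FOXRED1-NC (log2 fold change -0.68 ± 0.09 (SE), adjusted p = 2.2e-05). ATM was 96.7, 97.2 and 109.9 CPM in FOXRED1-sh and 124, 118 and 141 CPM in FOXRED1-NC (log2 fold change -0.34 ± 0.07 (SE), adjusted p = 0.00144), so ATM fell here as well as ATR and both of the kinases downstream. TOPBP1 (-0.49) and ATR (-0.24) fell and ATRIP did not pass (0.10). MSH6 fell by 0.19 on the log2 scale and PMS2 did not pass (0.09). The groups of ATR and of XRCC3 overlapped although both were called, and within each same-numbered pair the FOXRED1-sh library was the lower for both genes. Without FOXRED1-sh 1 the calls of FANCB, RBBP8, ATR and MSH6 were lost (adjusted p = 0.0797 for FANCB, 0.0557 for RBBP8, 0.0872 for ATR and 0.157 for MSH6). Leaving out FOXRED1-sh 2 or FOXRED1-NC 3 lost those of XRCC3, ATR and MSH6, and FOXRED1-NC 1 those of XRCC3, FANCB and MSH6. XRCC3 lost its call without FOXRED1-sh 3 or FOXRED1-NC 2 too.

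The knockdown experiments have separate controls, so their effects were compared in 1 fit of all 12 libraries. The effect differed for 29 of the 38 members, against 54.4% of the 17146 genes tested. It was lower in YY2-sh for 25 of them and higher for 4. The split by direction over all genes was not counted. The widest gaps below were those of BRCA2, with -1.23 ± 0.11 (YY2-sh minus FOXRED1-sh log2 fold change ± SE, adjusted p = 6.34e-09), EXO1 (-1.09 ± 0.12), XRCC2 (-1.04 ± 0.14) and ATRIP (-1.01 ± 0.20). CHEK2 had the widest gap above, 0.85 ± 0.10 (adjusted p = 4.87e-07), as it rose in YY2-sh and fell in FOXRED1-sh. RMI2 (0.39 ± 0.11), ATM (0.24 ± 0.09) and MRE11 (0.21 ± 0.08) fell further in FOXRED1-sh. NBN (-0.84 ± 0.09), ATR (-0.80 ± 0.09) and RBBP8 (-0.78 ± 0.11) fell further in YY2-sh. For FANCI the difference was 0.03 ± 0.08 (adjusted p = 0.75), with the 2 effects at -0.85 and -0.89.

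Of the 36 members that fell in YY2-sh, 26 (72.2%) also fell in FOXRED1-sh, which is 96.3% of the 27 that fell there, CHEK2 being the exception. Of all 38 members, 71.1% fell in FOXRED1-sh and 94.7% fell in YY2-sh. The shares in the overlap lie close to these, so the overlap by itself does not show that the knockdowns acted on the same members. Across the 38 members the log2 fold changes of the knockdowns had a Pearson r of 0.471 and a Spearman rho of 0.516, against 0.253 and 0.262 over the 14922 genes tested in both. These are descriptions across genes, which are not independent replicates and share libraries and depth. FOXRED1 itself was lower in both experiments, as given above.

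**Figure D4:**
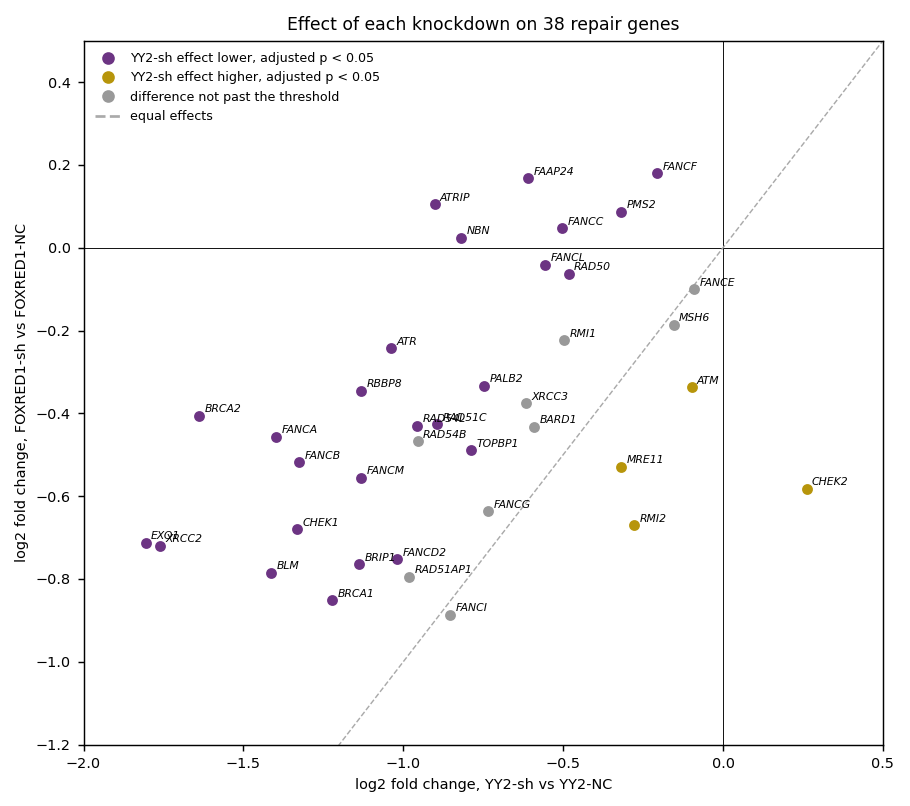
Log2 fold change of the 38 members in YY2-sh (x axis) against that in FOXRED1-sh (y axis), with purple for members whose YY2-sh effect was lower and gold for those whose YY2-sh effect was higher at an adjusted p of 0.05. Most points lie left of the dashed line of equal effects, BRCA2 at -1.64 and -0.41, and CHEK2 lies alone at 0.26 and -0.58.

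In the xenografts the members moved in both directions. NBN had the largest increase, at 92.9, 96.6 and 98.7 CPM in HFD and 55.9, 54.8 and 60.6 CPM in ND, 1.69-fold higher (log2 fold change 0.76 ± 0.04 (SE), adjusted p = 7.15e-10). BRCA1 was 79.4, 74.6 and 79.8 CPM in HFD and 56.6, 51.9 and 56.8 CPM in ND, 1.42-fold higher (log2 fold change 0.51 ± 0.05 (SE), adjusted p = 1.08e-07). CHEK1 was 42.0, 39.7 and 40.2 CPM in HFD and 30.1, 27.2 and 29.5 CPM in ND, 1.41-fold higher (log2 fold change 0.50 ± 0.05 (SE), adjusted p = 6.99e-07). Every HFD library lay above every ND library for these 3 genes, but this was a condition of their choice as the largest increases. The share of all genes with groups that did not overlap was not counted.

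Of the 6 checkpoint members 4 (66.7%) rose and 1 (16.7%) fell in the diet experiment, against 25.6% and 23.9% of all genes. CHEK2 (0.44), TOPBP1 (0.26) and ATR (0.17) rose with CHEK1, and ATRIP did not pass (0.04). The ATR call was lost with total counts as scaling (0.06, adjusted p = 0.217). ATM fell, at 71.2, 71.1 and 72.8 CPM in HFD and 81.5, 75.5 and 77.7 CPM in ND (log2 fold change -0.12 ± 0.04 (SE), adjusted p = 0.0188), and its call was lost with no filter on low counts and without HFD 1, HFD 2 or ND 1. MSH6, which recognizes mismatched bases, rose by 0.32 on the log2 scale, and PMS2 did not pass (-0.11, adjusted p = 0.0618).

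In end resection EXO1 was 39.6, 38.6 and 35.9 CPM in HFD and 32.6, 30.7 and 30.8 CPM in ND (log2 fold change 0.28 ± 0.05 (SE), adjusted p = 0.000327), MRE11 rose by 0.10 (adjusted p = 0.0401, lost without HFD 2, HFD 3, ND 1 or ND 2, and -0.01 with total counts as scaling), and RBBP8 and RAD50 did not pass. Of the BRCA group BARD1 rose (0.41) with its partner BRCA1. PALB2 fell, at 42.0, 39.9 and 43.0 CPM in HFD and 48.2, 45.0 and 51.1 CPM in ND (log2 fold change -0.19 ± 0.05 (SE), adjusted p = 0.00506). BRCA2 was 45.3, 45.4 and 44.0 CPM in HFD and 46.1, 42.3 and 47.6 CPM in ND, with overlapping groups and an interval of the log2 fold change from -0.11 to 0.10. The subunits of the BRCA1-PALB2-BRCA2 chain therefore did not move together in the xenografts.

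None of the 6 strand invasion paralogs and accessory factors was called in the diet experiment, and 0 of them had an unadjusted p under 0.05 by edgeR or a call by DESeq2. RAD54L was 14.9, 13.2 and 14.8 CPM in HFD and 13.2, 14.9 and 15.3 CPM in ND (log2 fold change -0.01, 95% interval -0.17 to 0.15). Those of the 6 ranged from -0.06 to 0.12. XRCC3 rose without ND 2 (0.25, adjusted p = 0.011), and RAD51C was called lower with total counts as scaling (-0.16, adjusted p = 0.0326). The bound farthest from 0 in any of their 95% intervals was 0.29, for XRCC3.

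Of the 9 core complex members 2 (22.2%) rose and 1 (11.1%) fell in the xenografts, under the 25.6% and 23.9% of all genes. FANCI was 117, 117 and 115 CPM in HFD and 105, 99.3 and 100.3 CPM in ND (log2 fold change 0.19 ± 0.04 (SE), adjusted p = 0.00038) and FANCD2 was 39.8, 39.8 and 40.03 CPM in HFD and 45.3, 40.3 and 40.7 CPM in ND (log2 fold change -0.07 ± 0.05 (SE), adjusted p = 0.237), with the HFD values just under those of ND. With total counts as scaling FANCI was at 0.08 (adjusted p = 0.0706) and FANCD2 at -0.19 (adjusted p = 0.00575), so FANCI lost its call and FANCD2 gained a call. In the core complex FANCE (0.38) and FANCF (0.21) rose, FANCF not without HFD 3 or ND 1, and FAAP24, which anchors the core to DNA with FANCM, fell. FAAP24 was 4.60, 4.70 and 5.46 CPM in HFD and 6.45, 5.88 and 6.98 CPM in ND (log2 fold change -0.35 ± 0.11 (SE), adjusted p = 0.0126), a call lost without HFD 1 or ND 3. BLM (0.28) and RMI1 (0.26) rose, whereas RMI2 was 36.0, 33.0 and 33.4 CPM in HFD and 37.9, 37.1 and 39.5 CPM in ND (log2 fold change -0.16 ± 0.05 (SE), adjusted p = 0.0153) and lost its call with no filter and without HFD 2, HFD 3 or ND 3. The members that fell were 4 in all and 2 without HFD 1, HFD 2 or ND 3, and of the 4 only PALB2 kept its call at the same threshold in all 12 other fits. With total counts as the only scaling the split was 11 higher and 10 lower in place of 15 and 4, the members' median was -0.06 in place of 0.05, and the median of all genes moved from -0.01 to -0.12. Of the 17012 genes tested, 2800 were then higher and 6415 lower, in place of 4354 and 4061.

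In TRIM15-OE 36 of the 38 members did not pass the threshold. FANCA, a scaffold of the core complex, was 55.5, 51.6 and 53.4 CPM in TRIM15-OE and 60.9, 62.0 and 61.0 CPM in TRIM15-EV, 1.14-fold lower (log2 fold change -0.19 ± 0.04 (SE), adjusted p = 0.00451). RAD51C, which forms complexes with XRCC2 and XRCC3, was 34.5, 33.8 and 31.5 CPM in TRIM15-OE and 36.6, 38.004 and 37.1 CPM in TRIM15-EV, 1.12-fold lower (log2 fold change -0.16 ± 0.05 (SE), adjusted p = 0.0347). Every TRIM15-OE library was below every TRIM15-EV library for both, which was a condition of their choice as the largest decreases. FANCA held its call at the same threshold in all 12 other fits, and RAD51C lost it with DESeq2 (adjusted p = 0.0944) and without TRIM15-OE 2, TRIM15-OE 3 or any single TRIM15-EV library.

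Of the 8 genes shown for every experiment, all but FANCD2 had 95% intervals that included 0 in TRIM15-OE. The interval of FANCD2 ran from -0.23 to -0.03. BRCA1 was 113, 116 and 122 CPM in TRIM15-OE and 124, 123 and 124 CPM in TRIM15-EV (95% interval of the log2 fold change -0.15 to 0.0013). BRCA2 was 79.2, 87.9 and 92.2 CPM in TRIM15-OE and 86.3, 82.6 and 85.8 CPM in TRIM15-EV (interval -0.08 to 0.13). EXO1 was 59.3, 59.6 and 58.7 CPM in TRIM15-OE and 59.2, 57.8 and 59.6 CPM in TRIM15-EV (interval -0.08 to 0.09). BRCA1 lay lower in each TRIM15-OE library than in any TRIM15-EV library, the other 2 genes overlapped, and no interval reached a 1.2-fold change. FANCD2 was 57.9, 63.8 and 59.9 CPM in TRIM15-OE and 69.0, 65.8 and 64.2 CPM in TRIM15-EV (log2 fold change -0.13 ± 0.05 (SE), adjusted p = 0.0526), just short of the threshold. FANCI was 150.2, 160.3 and 158 CPM in TRIM15-OE and 165, 162 and 158 CPM in TRIM15-EV (interval -0.12 to 0.03). RAD54L was 20.1, 19.0 and 17.3 CPM in TRIM15-OE and 19.6, 20.2 and 20.1 CPM in TRIM15-EV (interval -0.23 to 0.07). FANCD2 passed with total counts as scaling, with no filter, with at least 10 counts in every library and without TRIM15-OE 2 (adjusted p = 0.0200, 0.0203, 0.0497 and 0.0379), with no TRIM15-OE library as high as any TRIM15-EV library. CHEK1 was 57.6, 61.0 and 61.4 CPM in TRIM15-OE and 59.9, 65.9 and 60.6 CPM in TRIM15-EV (interval -0.15 to 0.05). ATM was 81.9, 88.7 and 93.9 CPM in TRIM15-OE and 94.5, 90.8 and 92.4 CPM in TRIM15-EV (interval -0.17 to 0.03). Both kinases had overlapping groups. Without TRIM15-OE 1, 5 members fell (RAD51C, XRCC3, FANCA, FANCG and ATRIP) and 1, RBBP8, rose, and without TRIM15-EV 1 or 3 FANCA alone fell.

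The diet and TRIM15 effects were compared in the same way, since TRIM15 mRNA had 12 to 24 counts in the HFD tumors and 0 or 1 in the ND tumors (adjusted p = 2.72e-06). The effects differed for 17 of the 38 members, against 35.2% of 17160 genes tested, and in all 17 the diet effect was the higher. How many of all genes differed in that direction was not counted. NBN (0.81 ± 0.06), BRCA1 (0.62 ± 0.06), CHEK2 (0.60 ± 0.07) and CHEK1 (0.58 ± 0.07) had the widest gaps. MSH6 (0.42 ± 0.06), FANCE (0.43 ± 0.09) and BARD1 (0.41 ± 0.06) followed. These gaps are estimates of the joint fit with its own scaling, and they can differ from a subtraction of the separate effects. The tumors grew in mice and the transfected cells in culture, so diet, host and culture cannot be told apart from the overexpression in this comparison.

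Of 67 further genes of these pathways, 65 were tested in YY2-sh, where 47 (72.3%) fell and 7 (10.8%) rose. Over all genes 38.1% fell and 36.8% rose there. In FOXRED1-sh 28 (43.8%) fell and 3 (4.69%) rose of 64, against 19.7% and 16.8% of all genes. In HFD 17 (26.2%) fell and 17 (26.2%) rose of 65, near the 23.9% and 25.6% of all genes. In TRIM15-OE 9 (13.8%) fell and 5 (7.69%) rose of 65, against 9.53% and 12.5% of all genes. The medians of this list were -0.55 in YY2-sh, -0.27 in FOXRED1-sh, -0.03 in HFD and -0.04 in TRIM15-OE on the log2 scale. In YY2-sh the list's largest decreases included those of CLSPN (-2.93), the adaptor through which ATR activates CHEK1, and TIPIN (-2.41) of the fork protection complex. RAD9A, a clamp subunit, rose there by 0.78.

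Per kilobase of exonic length in GENCODE 29, the levels of the members in YY2-NC ran from 0.842 CPM for RAD50 to 29.2 CPM for TOPBP1, followed by FANCL (27.0), FANCI (22.9) and RAD51AP1 (18.6). In YY2-sh FANCL (18.4) and TOPBP1 (16.9) led, and EXO1 went from 14.6 to 4.18 and XRCC2 from 6.76 to 2.00. In ND FANCL (24.7) and TOPBP1 (16.7) were highest and RAD50 (0.662) lowest. These levels rest on the union of all annotated exons, which understates genes with long unused exons. The place of RAD50 is uncertain, as 79.7% of its exonic bases are shared with AC116366.3 on the same strand.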

How the data were processed

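The study sequenced poly(A) RNA of 24 libraries, 3 in each of 8 groups, and the authors deposited 1 table of raw read counts per Ensembl gene for each of the 4 experiments. The builds hg38 and mm10 are named in the submitters' processing notes. The aligner, the counter, the use of strand and how mouse reads were set apart from human reads are not given in the sources used here. In the TRIM15 table the header had more cells than the data had columns, so its columns were matched to samples by the names left in the header once empty cells were dropped.

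The counts were tested within each table with edgeR 4.0.16 in R 4.3.3 (TMM scaling, filterByExpr with a minimum count of 10, quasi-likelihood fit, Benjamini-Hochberg adjustment over all genes tested, threshold 0.05). Differences of effects were interaction terms in a joint fit of 2 tables. The scripts were tested on simulated data. Symbols came from the Ensembl IDs, and exonic lengths and overlaps from GENCODE 29. CPM carry the TMM factor. Library totals of 14299807 to 45994561 counts put 33 members at 100 or more counts in every library, and the spread covers counting error and replicate differences only.

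The genes named were the 3 members called with the largest change in each direction and experiment at a mean CPM of at least 1 and with groups that did not overlap, with a panel of 8 (BRCA1, BRCA2, FANCD2, FANCI, RAD54L, EXO1, CHEK1 and ATM) in every experiment. Further members are named within their roles. The members, the lists and the panel were chosen with earlier results of these data known. Alternatives were DESeq2 1.42.0 (its size factors and its Wald test), total counts as scaling, other filters, stricter thresholds, a replicate block and each library left out. Same-numbered libraries deviated together in the FOXRED1 experiment (correlations of 0.176, 0.118 and 0.34 over 10714 genes, all over 0.1), but not in all pairs of the other 3 experiments. FOXRED1-sh 2 and FOXRED1-NC 1, with different numbers, reached 0.182, so whether the numbers pair the samples is not settled. The values given come from fits without a replicate block in every experiment, and the block was an alternative only. Results for some genes of the wider list are not reported here.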

Additional observations from a re-analysis of the deposited data

Results flagged for a closer look

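A test of the difference itself, an interaction term in edgeR's quasi-likelihood model over 12 libraries, picked out 29 members whose response differed between the knockdowns at an adjusted p under 0.05, where 54.4% of all genes tested did. The values are estimates, from the joint fit, of the log2 fold change in YY2-sh minus that in FOXRED1-sh. The split by direction over all genes was not counted. The wider differences below 0 were those of BRCA2 (-1.23), EXO1 (-1.09), XRCC2 (-1.04), ATRIP (-1.01), FANCA (-0.94), NBN (-0.84), FANCB (-0.80), ATR (-0.80), RBBP8 (-0.78), FAAP24 (-0.77), CHEK1 (-0.65), BLM (-0.63), FANCM (-0.58), FANCC (-0.55), RAD54L (-0.53) and FANCL (-0.52). The narrower were those of RAD51C (-0.47), RAD50 (-0.42), PALB2 (-0.41), PMS2 (-0.40), FANCF (-0.39), BRCA1 (-0.37), BRIP1 (-0.37), TOPBP1 (-0.30) and FANCD2 (-0.27). The response was higher in YY2-sh for CHEK2 (0.85), RMI2 (0.39), ATM (0.24) and MRE11 (0.21).

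By the same test, 17 members responded differently to the diet and to TRIM15, where 35.2% of all genes did. The values are estimates, from the joint fit with its own scaling, of the log2 fold change in HFD minus that in TRIM15-OE. They can differ from a subtraction of the separate effects, which for FANCA were -0.05 in HFD and -0.19 in TRIM15-OE. All 17 were above 0, and the split by direction over all genes was not counted. They were those of NBN (0.81), BRCA1 (0.62), CHEK2 (0.60), CHEK1 (0.58), FANCE (0.43), MSH6 (0.42), BARD1 (0.41), RMI1 (0.36), XRCC3 (0.35), FANCF (0.35), BLM (0.31), EXO1 (0.30), TOPBP1 (0.28), FANCI (0.27), ATR (0.20), FANCG (0.19) and FANCA (0.17).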

How the results depend on the processing

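The counts of members that fell in YY2-sh (34 to 36 with a library left out) and FOXRED1-sh (22 to 27) and their medians (-0.86 to -0.80 and -0.49 to -0.39) stayed within 1.5 times under the alternatives run. The smaller counts moved. A fold change of at least 1.2 left 9 higher and 1 lower in HFD, 0 lower in TRIM15-OE and 0 higher in YY2-sh. An adjusted p under 0.01 left 1 lower in HFD and 1 in TRIM15-OE. Total counts as scaling gave 10 lower in HFD with a median of -0.0646, 5 lower in TRIM15-OE with a median of -0.0803, and 1 higher (FANCF) in FOXRED1-sh. Over all genes this scaling gave 6415 lower of 17012 in HFD, 2214 lower of 15745 in TRIM15-OE and 3325 higher of 15730 in FOXRED1-sh. No filter gave 2 lower in HFD and 5 in TRIM15-OE, and DESeq2 1 lower in TRIM15-OE. Leaving out a library gave 13 to 15 higher and 2 to 4 lower in HFD (median 0.0447 to 0.0830), and 0 to 1 higher and 1 to 5 lower in TRIM15-OE (median -0.0531 to -0.0193). It gave 25 to 29 differences between knockdowns and 14 to 19 between diet and TRIM15. The replicate block gave 14 higher and 4 lower in HFD, 3 lower in TRIM15-OE (FANCG added), 1 higher and 36 lower in YY2-sh and 28 lower in FOXRED1-sh (RMI1 added), lost MRE11 in HFD, and changed no other call of a member. Values near 0 turned sign. In HFD, the log2 fold change was 0.0107 for BRCA2 and 0.0082 for RAD54L with no filter, and ran from -0.0594 to 0.0353 and from -0.0650 to 0.0408 with a library left out. In TRIM15-OE, with total counts, it was -0.0090 for BRCA2 and -0.0221 for EXO1, with no filter -0.0047 for EXO1, and with a library left out it ran from -0.0284 to 0.0843 for BRCA2 and from -0.0060 to 0.0149 for EXO1. The stricter E2F-type letters TTTCGCGC or TTTGGCGC were in 6.12% of member windows and 1.15% of all windows. The cause of these changes was not tested. At the same threshold, 12 of 19 calls in HFD, 1 of 2 in TRIM15-OE, 35 of 37 in YY2-sh (FANCF and ATM excepted) and 21 of 27 in FOXRED1-sh held in all 12 other fits. Of the 38 members, 33 had 100 or more counts in every library.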
